A study of Saccharomyces cerevisiae with 24 samples.

Results

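The 3 libraries of the yeast strain rad6-R6A,M10A were compared with the 3 libraries of the tagged wild type, 6 of the 24 RNA sequencing libraries of the study. Members were chosen by the group name in the column headers of the sense and antisense count tables. Both strains were MATa and carried his3Δ200, lys2-128Δ, ura3-52 and trp1Δ63 with an HA tag at the start of RTF1 (3xHA-RTF1). The wild type carried RAD6-13xMYC::KanMX, and the mutant carried rad6-R6A,M10A with the same Myc tag and marker. Each genotype was 1 named strain with 3 biological replicates, so a difference between genotypes cannot be told apart from a difference between these 2 strain isolates. Cultures grew in the rich medium YPD to log phase at an optical density at 600 nm of 0.8 to 1.0 and were mixed at 9 parts to 1 with cells of another yeast, Kluyveromyces lactis, by optical density. Both tags were present in mutant and control.

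Rad6 is a ubiquitin-conjugating enzyme. With the ligase Bre1 it places a single ubiquitin on a conserved lysine of histone H2B in transcribed chromatin, a step that requires the Paf1 complex and the histone modification domain of its subunit Rtf1. Ubiquitylated H2B promotes methylation of histone H3 by Set1 and Dot1 and aids nucleosome reassembly behind RNA polymerase II. With other ligases, Rad6 also acts in post-replication repair and in degradation of proteins by their N-terminal residue. The study asked about the N-terminal helix of Rad6, in which both substituted residues lie.

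The first codons of RAD6 in the reference genome are shown because they hold the substituted positions. Capitals mark the codons for arginine at position 6 and methionine at position 10, counted from 1 at the start codon, and both residues were replaced by alanine in the mutant (R6A and M10A). The window lies on the plus strand at chrVII:393986-394045 (R64 build).

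RAD6 codons: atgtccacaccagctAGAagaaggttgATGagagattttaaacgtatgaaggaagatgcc

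RAD6 itself (YGL058W, chromosome VII 393986 to 394504) had 1322, 1231 and 1420 sense counts in the mutant libraries and 357, 467 and 362 in the wild type. The gene tables sum reads over the whole gene, so they show its level and not the substituted codons. Counts were scaled to CPM, the count divided by the normalised library total and multiplied by 1e+06. The level was 151 ± 9.87 in the mutant and 49.7 ± 6.12 in the wild type (SD, n = 3 each). All mutant libraries lay above all wild-type libraries, and RAD6 rose by log2 1.61 ± 0.18 (SE; edgeR adjusted p = 2.04e-06). RTF1 was at 201, 146 and 156 CPM in the mutant and 113.9, 122.8 and 107.7 in the wild type, a rise of log2 0.55 ± 0.16 (edgeR adjusted p = 0.0138). That call was lost when rad6-R6A,M10A replicate 1 or WT tagged replicate 3 was left out, with a largest adjusted p of 0.0984. BRE1, the ligase gene, was at 202 ± 51.7 CPM against 184 ± 6.03 and did not pass the test (log2 0.14 ± 0.16).

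The labels do not say whether the RAD6 locus was built in the same way in both strains beyond the substitutions, so a part of the locus in the RAD6 level was not tested. The genes beside RAD6 also differed. PKP2, which encodes a kinase of mitochondrial pyruvate dehydrogenase, was at 61.0, 64.7 and 57.5 CPM in the mutant and 32.2, 27.2 and 34.8 in the wild type, and rose by log2 0.96 (edgeR adjusted p = 1.58e-06). GEP7, on the other side, fell by 0.48 on the log2 scale (edgeR adjusted p = 0.00702, and 0.159 with K. lactis scaling). Beside RTF1, TAD1, which encodes a tRNA adenosine deaminase, fell by 0.84 on the log2 scale, and GUS1, the glutamyl-tRNA synthetase gene, was at 460 ± 81.5 against 401 ± 21.4 CPM with overlapping libraries.

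The 6 libraries held 8162414 to 9133430 sense counts, 489792 to 535791 antisense counts and 1256816 to 1508792 K. lactis counts, so antisense values rest on far fewer reads. The strains were MATa by label. The level of STE2, the receptor of MATa cells, was 1195 ± 65.4 CPM in the wild type, while STE3, the receptor of the opposite mating type, was at 3.24 ± 0.193 CPM. On the log2 scale, sense counts of S. cerevisiae over those of K. lactis stood at 2.83, 2.74 and 2.82 in the mutant and 2.61, 2.66 and 2.52 in the wild type. The groups did not overlap and differed by 0.20, with an exact two-sided permutation p of 0.1, the smallest that 3 against 3 allows. More cells and more RNA per cell cannot be told apart in such a ratio. Of 4599 K. lactis genes tested, edgeR called 0 (0%), with 137 at an unadjusted p under 0.05, and DESeq2 also called 0.

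On the sense strand, 1459 of 5790 genes tested (25.2%) differed at an edgeR adjusted p under 0.05. Of these, 695 (12%) were higher in the mutant and 764 (13.2%) lower, with a median log2 change of 0.59 among the higher and -0.56 among the lower genes. At least 2-fold changes were 153 of the rises and 60 of the falls, 213 genes in all (3.68%). At least 4-fold changes were 44 rises and 4 falls. The 3 and 3 libraries did not overlap for 672 of the genes that rose and 737 of those that fell. When each of the 6 libraries was left out in turn, 736 of the 1459 genes, 353 higher and 383 lower, were called in every one of the 6 fits.

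Scaled to K. lactis counts instead, the median over all genes moved from -0.004 to 0.209 on the log2 scale, and the calls became 1413 higher and 283 lower. Changes below are therefore relative to the typical S. cerevisiae gene in the same library.

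The largest rises included genes of vitamin B6, arginine and phosphate metabolism. SNO1, which acts in vitamin B6 synthesis, was at 24.8, 26.0 and 16.4 CPM in the mutant and 1.31, 0.486 and 1.39 in the wild type, a log2 change of 4.39 ± 0.41 (edgeR adjusted p = 4.45e-07). Its divergent partner SNZ1 rose by log2 2.23, from 36.5 ± 4.11 to 171 ± 16.3 CPM. ARG1, the argininosuccinate synthetase gene, was at 766, 731 and 876 CPM in the mutant and 45.7, 39.5 and 50.2 in the wild type (log2 4.13 ± 0.13, edgeR adjusted p = 1.9e-16). In all 3 genes every mutant library lay far above every wild-type library.

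YNR064C, annotated as an epoxide hydrolase, was at 77.6, 47.1 and 42.0 CPM in the mutant and 3.54, 3.16 and 3.03 in the wild type (log2 4.10 ± 0.22, edgeR adjusted p = 9.4e-12). PHO89, a sodium and phosphate cotransporter of the plasma membrane, was at 133, 64.3 and 70.8 CPM against 22.5, 4.26 and 7.06, with a wide spread in both groups (log2 3.00 ± 0.65, edgeR adjusted p = 0.00271). The peptide transporter gene OPT2 rose by log2 2.32, the vacuolar mannosidase gene AMS1 by 2.32 and the spore-wall chitin deacetylase gene CDA1 by 2.28. YMR244W rose by log2 2.35 and ARG3, the ornithine carbamoyltransferase gene, by 2.41.

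Among the 10 largest falls were 4 mating genes. AGA1, the cell-wall anchor of the MATa agglutinin, was at 2.47, 2.69 and 2.17 CPM in the mutant and 6.81, 11.2 and 13.0 in the wild type, and fell by 2.08 ± 0.35 on the log2 scale (edgeR adjusted p = 0.000155). The other mating genes were MFA1 (-1.75) and MFA2 (-1.27), which encode the pheromone a-factor, and SST2 (-1.496), the GTPase activator that damps pheromone signalling. SST2 was at 227, 263 and 225 CPM in the mutant and 661, 621 and 735 in the wild type, with the narrowest error of these falls (SE 0.10, edgeR adjusted p = 2.14e-09). The others were ARA2, a dehydrogenase of D-arabinose (-1.55), GRX4, a glutaredoxin of iron regulation (-1.496), TGL2, a lipase (-1.42), YGR122C-A (-1.33), YNL040W (-1.31) and TCD2, a tRNA-modifying enzyme (-1.23). The choice of these 10 genes required libraries that did not overlap.

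**Figure D1:**
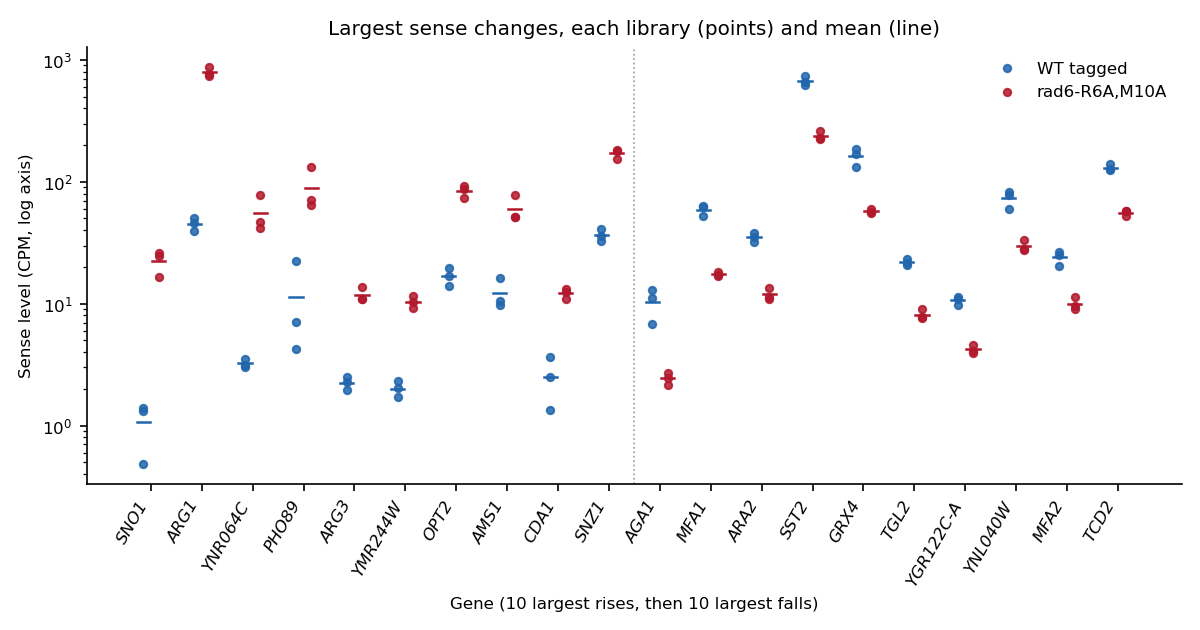
Sense level in CPM on a log axis of the 10 largest rises and the 10 largest falls, with 1 point per library, blue for WT tagged and red for rad6-R6A,M10A, and a line at each mean. Only genes whose groups separate were eligible, and those shown run from SNO1 at the left (log2 4.39) to TCD2 at the right (-1.23).

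Genes of the pheromone response fell. Of 45 members tested, 24 fell, 2 rose and 19 did not pass the test, with a median log2 change of -0.64 against -0.004 over all genes, where 13.2% fell. Among the falls were the receptor STE2 (-0.88), the G protein subunits GPA1 (-0.47; edgeR adjusted p = 0.0663 with K. lactis scaling) and STE4 (-0.55), the cell-cycle arrest factor FAR1 (-0.81), the transcription factor KAR4 (-1.004) and the cell fusion protein FUS1 (-1.22). FUS1 was at 23.1, 21.6 and 29.7 CPM in the mutant and 65.0, 52.5 and 56.6 in the wild type, and FAR1 at 298, 299 and 303 against 529, 464 and 587. In both the mutant libraries lay below all wild-type libraries.

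The 2 members that rose were KAR3 and DIG2. KAR3, a kinesin of nuclear fusion that also acts in mitosis, rose by log2 0.63 (edgeR adjusted p = 0.000614), and DIG2, an inhibitor of the factor Ste12, by 0.96 (edgeR adjusted p = 0.0103). The DIG2 call was lost without WT tagged replicate 2 and with counts that ignore strand, and 4 members rose without rad6-R6A,M10A replicate 3. STE12 itself was at 52.8 ± 5.65 CPM against 69.2 ± 12 and did not pass the test (log2 -0.39 ± 0.24, edgeR adjusted p = 0.241). The count of falls was 20 to 24 when each library was left out in turn. With K. lactis scaling it was 19 falls and 7 rises, with a median 0.64 below that of all genes.

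All 7 genes specific to MATa cells fell (6 or 7 when each library was left out), and all 7 are also in the pheromone list. Besides MFA1, MFA2 and STE2 these were AGA2 (-1.10), the pheromone protease gene BAR1 (-0.67), the a-factor exporter gene STE6 (-0.64) and ASG7 (-0.67). The AGA2 call was lost without rad6-R6A,M10A replicate 3. The ASG7 call was lost without rad6-R6A,M10A replicate 1 and with K. lactis scaling. BAR1 was at 493, 442 and 527 CPM in the mutant and 786, 760 and 779 in the wild type, with no overlap. Of the 3 genes specific to the opposite mating type that were tested, STE3 rose by log2 0.80, from 3.24 ± 0.193 to 5.64 ± 0.544 CPM (edgeR adjusted p = 0.00643), and SAG1 did not pass the test.

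Windows upstream of the start codon were read from the R64 genome to show the letters that the binding motifs of known regulators match. Ste12 binds pheromone response elements, searched here as TGAAACA on both strands in the 300 bases before the start codon. The motif was present before 21 of 45 pheromone genes and before 13 of the 24 that fell, against 7.04% of 5896 genes with such a window. AGA1 and SST2 had it 202 and 245 bases before the start codon. The printed windows run from 300 to 151 bases before the start codon, at chrXIV:703399-703548 on the plus strand for AGA1 and at chrXII:1041517-1041666 on the minus strand for SST2, with the motif in capitals.

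AGA1: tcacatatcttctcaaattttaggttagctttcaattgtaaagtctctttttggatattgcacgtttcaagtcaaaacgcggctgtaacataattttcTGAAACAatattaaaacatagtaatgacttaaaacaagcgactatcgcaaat

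SST2: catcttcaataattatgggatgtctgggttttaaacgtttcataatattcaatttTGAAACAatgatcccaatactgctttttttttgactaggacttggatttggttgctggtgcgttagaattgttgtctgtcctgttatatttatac

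Genes of arginine synthesis rose. Of 9 members tested, 6 rose and none fell, with a median log2 change of 0.90 beside -0.004 over all genes, where 12% rose. After ARG1 and ARG3 came ARG7, the ornithine acetyltransferase (1.28 ± 0.15), ARG4, the argininosuccinate lyase (0.96 ± 0.13), the gene listed in RefSeq as ARG56 (0.90 ± 0.23) and the mitochondrial ornithine carrier ORT1 (0.58). ARG7 was at 107, 107 and 141 CPM in the mutant and 47.2, 48.5 and 51.1 in the wild type, and ARG4 was at 680, 772 and 729 against 380, 308 and 432. No mutant library overlapped a wild-type library in either gene. The 7 genes of arginine breakdown and uptake had 0 calls by edgeR, and CAR1, the arginase gene, had the smallest p among them (log2 0.32, edgeR adjusted p = 0.112). Without rad6-R6A,M10A replicate 3, 1 of these 7 was called lower.

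Other amino acid genes moved in both directions. Of 50 tested, 14 rose and 5 fell, beside 12% and 13.2% of all genes, and with K. lactis scaling 24 rose and 2 fell. HIS4, a histidine synthesis gene, was at 2709, 3293 and 3081 CPM in the mutant and 1237, 1022 and 1357 in the wild type (log2 1.33 ± 0.15, edgeR adjusted p = 1.73e-06), and ARO3, the first enzyme of aromatic amino acid synthesis, rose by log2 1.23. Among the falls were HOM6, homoserine dehydrogenase (-0.57), and GLT1, glutamate synthase (-0.56). GCN4, the transcription factor that activates amino acid synthesis genes, fell by 0.39 on the log2 scale at the level of its RNA, from 234 ± 17.5 to 178 ± 11.1 CPM (edgeR adjusted p = 0.0147). The GCN4 call was lost without rad6-R6A,M10A replicate 1, WT tagged replicate 1 or WT tagged replicate 2. It was also lost with K. lactis scaling, and the largest edgeR adjusted p over these alternatives was 0.329. The number of falls in the list was 3 without rad6-R6A,M10A replicate 1.

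The core Gcn4 motif, searched as TGACTC on both strands in the same 300 bases, was before 8 of the 9 arginine genes and 5 of the 6 that rose. It was before 28 of the 50 other amino acid genes, 9 of the 14 that rose and 0 of the 5 that fell, against 7.89% of all windows. In ARG1 the motif stands on the opposite strand, as its reverse complement, 274 bases before the start codon. The printed window runs from 300 to 151 bases before the start codon, at chrXV:218911-219060 on the plus strand.

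ARG1: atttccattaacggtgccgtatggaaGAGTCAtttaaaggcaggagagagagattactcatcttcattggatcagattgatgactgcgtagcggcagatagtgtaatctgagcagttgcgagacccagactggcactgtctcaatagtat

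**Figure D2:**
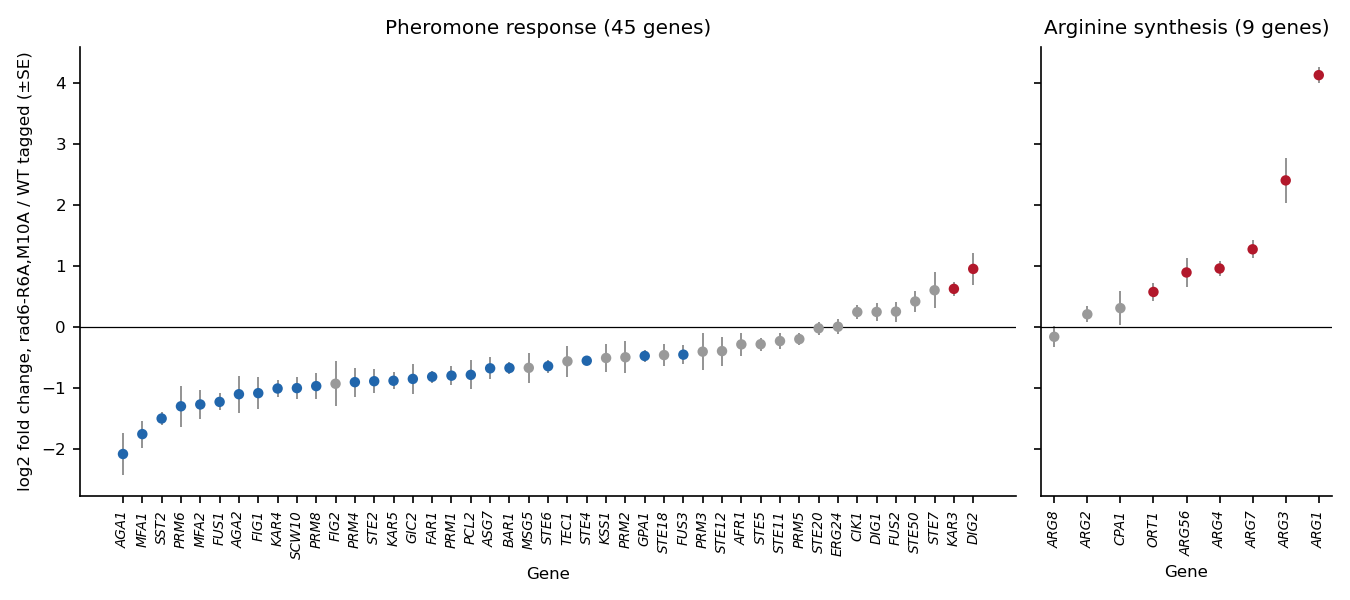
Log2 fold change of rad6-R6A,M10A over WT tagged with its standard error for the 45 pheromone response genes and the 9 arginine synthesis genes tested, each sorted by change. Red points rose, blue points fell and grey points did not pass the edgeR test; 24 pheromone genes lie among the falls and 6 arginine genes among the rises.

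Of 29 genes of sulfate and methionine metabolism tested, 11 rose, 1 fell and 17 did not pass the test, with a median of 0.33, where 12% of all genes rose and 13.2% fell. In this list 7 rose without rad6-R6A,M10A replicate 3. The single fall was absent in each fit without 1 library except that without rad6-R6A,M10A replicate 3, where 2 fell. The sulfate permease gene SUL2 was at 31.5, 29.0 and 47.7 CPM in the mutant and 17.3, 15.1 and 18.4 in the wild type (log2 1.09 ± 0.20, edgeR adjusted p = 0.000408), and its paralog SUL1 rose by 2.66 from a low level of 0.793 ± 0.237 CPM, a call that counts ignoring strand did not give. STR3, a cystathionine lyase gene, rose by log2 1.14. The motif TCACGTG of the factor Cbf1 was before 10 of the 29 list members and 5 of the 11 that rose, against 2.61% of windows. THI7, the thiamine transporter gene, was at 182, 167 and 217 CPM against 95.9, 98.5 and 95.1, and rose by log2 0.97.

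Genes of meiosis and sporulation are kept low in growing haploid cells, and many are targets of the repressor Ume6. Of 66 members 58 passed the filter on low counts and 20 of them rose and 4 fell, where 12% of all genes rose and 13.2% fell. Of all genes with a mean under 5 CPM, 14.4% rose and 4.96% fell. The median of the list was 0.51, and 12 rose without WT tagged replicate 2. With K. lactis scaling 31 rose and 3 fell, where 24.4% of all genes rose and 4.89% fell. SPS19, a fatty acid oxidation gene of sporulation, was at 20.5, 18.7 and 20.2 CPM in the mutant and 6.42, 3.04 and 3.53 in the wild type (log2 2.20 ± 0.23, edgeR adjusted p = 7.42e-07). SPS4 rose by log2 1.05, and the septin gene SPR28 rose by 2.14 to 5.06 ± 0.254 CPM. The middle meiotic activator gene NDT80 fell by 1.39 on the log2 scale, and SSP1 and SPR6 fell by 0.72 and 0.63. The Ume6 core GCCGCC was before 23 of the 66 list members, 5 of the 20 that rose and 1 of the 4 that fell, against 5.29% of all windows.

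Histone genes fell where they changed. Of 11 tested, 4 fell and none rose, where 13.2% of all genes fell and 12% rose, and all 4 were genes of H2A and H2B. With K. lactis scaling 3 fell and 1 rose. HTB2 was at 37.2, 36.4 and 32.0 CPM in the mutant and 57.9, 61.3 and 59.0 in the wild type (log2 -0.75 ± 0.16, edgeR adjusted p = 0.00154). HTA1 fell by 0.79 and HTA2 by 0.58 on the log2 scale, and HTB1 by 0.81 from a low level of 8.82 ± 1.89 CPM. The HTB1 call was lost without any 1 of the libraries other than WT tagged replicate 1, and with K. lactis scaling or median-of-ratios factors. HTA1 and HTA2 are near-identical copies, so reads may be split between them. Of the 11 genes tested, 6 have a near-identical copy.

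Chromatin gene lists are read against the 12% of all genes that rose and the 13.2% that fell. Of 13 genes of H2B ubiquitylation and the Paf1 complex, 4 rose and none fell, RAD6 and RTF1 among them, with 2 calls without rad6-R6A,M10A replicate 1 or without WT tagged replicate 3. The Paf1 subunit genes PAF1 (24.8 ± 3.7 against 25.1 ± 0.607 CPM) and CDC73 (99.4 ± 9.03 against 90.1 ± 3.96 CPM) did not pass the test. Of 10 genes of histone methyltransferases, SWD3 (-0.53), SWD1 (-0.43) and DOT1 (-0.33) fell and 7 did not pass the test, with 1 fall without replicate 1 or 3 of rad6-R6A,M10A or without WT tagged replicate 3, and with K. lactis scaling none fell and 2 rose. SET1 was at 161 ± 3.54 against 165 ± 9.52 CPM. Of 27 genes of elongation and chromatin restoration, 7 rose and 3 fell, with 1 fall without replicate 1 or 2 of rad6-R6A,M10A or without WT tagged replicate 1. SPT5, an elongation factor that binds Rtf1, was at 1009.7, 1057 and 1009.6 CPM in the mutant and 558, 538 and 632 in the wild type (log2 0.83 ± 0.12, edgeR adjusted p = 2.46e-05). The histone chaperone gene ASF1 rose by log2 0.51. Among the falls of this list were SPT4 (-0.53, edgeR adjusted p = 0.00442) and MSI1 (-0.52). SPT4 kept its call when each library was left out. The MSI1 call was lost without any 1 of the libraries other than rad6-R6A,M10A replicate 3. Both calls were lost with K. lactis scaling.

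Of 25 iron genes tested 8 fell, none rose and 17 did not pass the test, where 13.2% of all genes fell, with a median of -0.35, and with K. lactis scaling 4 fell and 1 rose. FRE3, a reductase of iron bound to siderophores, was at 23.87, 23.97 and 22.22 CPM in the mutant and 44.8, 52.5 and 58.4 in the wild type (log2 -1.15 ± 0.16, edgeR adjusted p = 1.81e-05), and the siderophore transporter gene ARN2 fell by 0.85. Of 33 cell cycle genes 10 fell and none rose, with 5 falls without WT tagged replicate 2 and 1 rise without rad6-R6A,M10A replicate 1, and with K. lactis scaling 4 falls and 3 rises. The daughter-cell genes DSE1 (-0.97), DSE2 (-0.88) and SCW11 (-0.83), which act in separating mother and daughter, led the falls. DSE1 was at 247, 274 and 240 CPM against 502, 453 and 539. Of 30 ergosterol synthesis genes 7 fell and none rose, or 3 and 1 with K. lactis scaling, led by ERG26 (-0.65), the reductase gene HMG1 (-0.60) and ERG10 (-0.50).

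Of 137 genes of cytosolic ribosomal proteins, 25 fell and 2 rose, with a median of -0.22, where 13.2% of all genes fell and 12% rose. The count of falls was 7 without rad6-R6A,M10A replicate 1, 10 without replicate 1 or 3 of the wild type, and with K. lactis scaling 3 fell and 4 rose. The rises were 1 without replicate 2 or 3 of either strain. Of the 137 genes, 61 have a near-identical copy, so reads may be split between copies. Among the falls, RPL1B fell by 0.62 on the log2 scale (edgeR adjusted p = 0.00187), a call kept in every alternative. RPS22B, 1 of the 2 rises, was at 909, 1053 and 915 CPM in the mutant and 621, 532 and 699 in the wild type (log2 0.64 ± 0.15, edgeR adjusted p = 0.00308). Of 124 ribosome biogenesis genes 16 rose and 3 fell, near the 12% that rose over all genes, and 7 rose without rad6-R6A,M10A replicate 2 or without WT tagged replicate 1. With K. lactis scaling 48 rose and none fell. RRP5, an rRNA processing gene, rose by log2 0.58.

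Of 43 proteasome genes 10 rose and 1 fell, with a median of 0.15, where 12% of all genes rose and 13.2% fell. With K. lactis scaling 21 rose and none fell. The rises were 6 without rad6-R6A,M10A replicate 1 and 5 without WT tagged replicate 1 or 2. No proteasome gene fell without replicate 1 of either strain or WT tagged replicate 3. RPT2, an ATPase of the regulatory particle, rose by log2 0.57, from 329 ± 27.8 to 488 ± 31.9 CPM. The Rpn4 element, searched as GTGGCAA, was before all 10 that rose but also before 38 of the 43 list members, against 4.97% of windows. Of 32 heat shock chaperone genes 7 rose and 1 fell, or 15 and 0 with K. lactis scaling, with 4 rises without rad6-R6A,M10A replicate 1 or without WT tagged replicate 2. The falls were 2 without rad6-R6A,M10A replicate 1 and 0 without rad6-R6A,M10A replicate 2, WT tagged replicate 2 or WT tagged replicate 3. HSP78, a mitochondrial chaperone gene, was at 356, 306 and 282 CPM against 162, 130 and 156 (log2 1.07 ± 0.19, edgeR adjusted p = 0.000408).

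Nutrient genes were mixed, read against the 12% of all genes that rose and the 13.2% that fell. Of 35 nitrogen catabolite genes, 8 rose and 9 fell, with 4 or 5 falls without rad6-R6A,M10A replicate 1 or any 1 of the WT tagged libraries. The ammonium permease gene MEP2 was at 38.1, 38.6 and 42.6 CPM in the mutant and 76.9, 66.9 and 72.9 in the wild type (log2 -0.86 ± 0.11, edgeR adjusted p = 8.32e-06). Glutamine synthetase GLN1 and the proline oxidase gene PUT1 rose by log2 0.74 and 0.99. Of 22 hexose transport genes 4 rose and 5 fell, among them HXT1, the low-affinity glucose transporter gene, at 238, 261 and 363 CPM against 618, 715 and 507 (log2 -1.09 ± 0.23, edgeR adjusted p = 0.00187).

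Of 28 phosphate genes 4 rose and 3 fell, near the 12% and 13.2% over all genes, with PHM6 among the rises (1.204 ± 0.31) and the glycerophosphoinositol transporter gene GIT1 among the falls (-0.88 ± 0.18). The Pho4 site CACGTG was before 12 of the 28 list members and 3 of the 4 that rose, against 3.61% of windows. The high-affinity phosphate transporter gene PHO84 was at 85.7, 32.7 and 39.2 CPM in the mutant, and 45.1, 9.85 and 13.0 in the wild type. Replicate 1 was the highest in both strains, the groups overlapped and the gene did not pass the test (log2 1.22, edgeR adjusted p = 0.0972). PHO84 passed it without WT tagged replicate 1 and with the replicate block. Of 21 genes of the citrate and glyoxylate cycles 6 rose and none fell, with 3 rises without WT tagged replicate 2, and IDP2, an isocitrate dehydrogenase gene, rose by log2 0.75. Of 22 purine genes 7 fell and 1 rose, with 4 falls without rad6-R6A,M10A replicate 1, WT tagged replicate 2 or WT tagged replicate 3, and APT1, the adenine phosphoribosyltransferase gene, fell by 0.79.

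Genes tied to the other functions of Rad6 are read against the 12% of all genes that rose and the 13.2% that fell. Of 12 post-replication repair genes none rose and 2 fell. RAD30, a translesion polymerase, fell by 0.44, and POL30, the replication clamp, fell by 0.44 on the log2 scale. With K. lactis scaling neither call held. The POL30 call was lost without any 1 of the libraries other than rad6-R6A,M10A replicate 1, and with counts that ignore strand. Of 18 DNA damage genes 2 rose and 3 fell, near those shares. A single DNA damage gene (1) rose without rad6-R6A,M10A replicate 2 or WT tagged replicate 1 or 2. RNR1, the large subunit of ribonucleotide reductase, was at 343, 291 and 389 CPM in the mutant and 582, 668 and 517 in the wild type (log2 -0.79 ± 0.17, edgeR adjusted p = 0.00177). Of 11 genes of the N-degron pathway and peptide transport 3 rose and 2 fell, with 1 fall without replicate 1 or 2 of either strain. The N-terminal amidase gene NTA1 rose by log2 0.34, and PTR2, the peptide transporter that this pathway controls, fell by 0.51, at 130, 101 and 108 CPM against 158, 173 and 154. The PTR2 call was lost with K. lactis scaling.

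Of 17 silencing genes none rose and 2 fell, where 12% of all genes rose and 13.2% fell, and 0 or 1 fell without any 1 of the libraries other than WT tagged replicate 2; 1 rose without rad6-R6A,M10A replicate 3 or WT tagged replicate 2. Of 282 genes within 30 kb of a chromosome end that were tested, 39 rose and 52 fell. The 64 genes within 10 kb had 11 rises (17.2%) and 16 falls (25%), with a median of -0.31. Of 12 COS genes, which lie near chromosome ends, 4 fell, among them COS9 (-0.88) and COS10 (-0.86). COS4 rose by 2.73 from 0.542 ± 0.171 CPM. Near-identical copies exist for 7 of the 12, among them COS4 and the falls COS2 and COS6. Read against the same shares, 3 rose and 3 fell of 31 glycolysis genes (0 falls without rad6-R6A,M10A replicate 2 and 1 without WT tagged replicate 1 or 2), 6 rose and 3 fell of 36 osmotic and oxidative stress genes, and 1 rose of 19 trehalose and glycogen genes. That 1 rise was lost without rad6-R6A,M10A replicate 3, WT tagged replicate 2 or WT tagged replicate 3. In the trehalose and glycogen list 2 genes rose without WT tagged replicate 1. The falls there were 2 without rad6-R6A,M10A replicate 1 and 1 without WT tagged replicate 2.

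With K. lactis scaling 24.4% of all genes were called higher and 4.89% lower, and the list counts are read against those shares. It gave 9 rises and no falls among the elongation genes, 12 and 2 among the nitrogen catabolite genes, 6 and 2 among the hexose transport genes and 9 and 1 among the phosphate genes. The purine genes had 2 rises and 2 falls, the silencing genes 6 rises and no falls, and the genes within 30 kb of a chromosome end 62 rises and 24 falls.

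**Figure D3:**
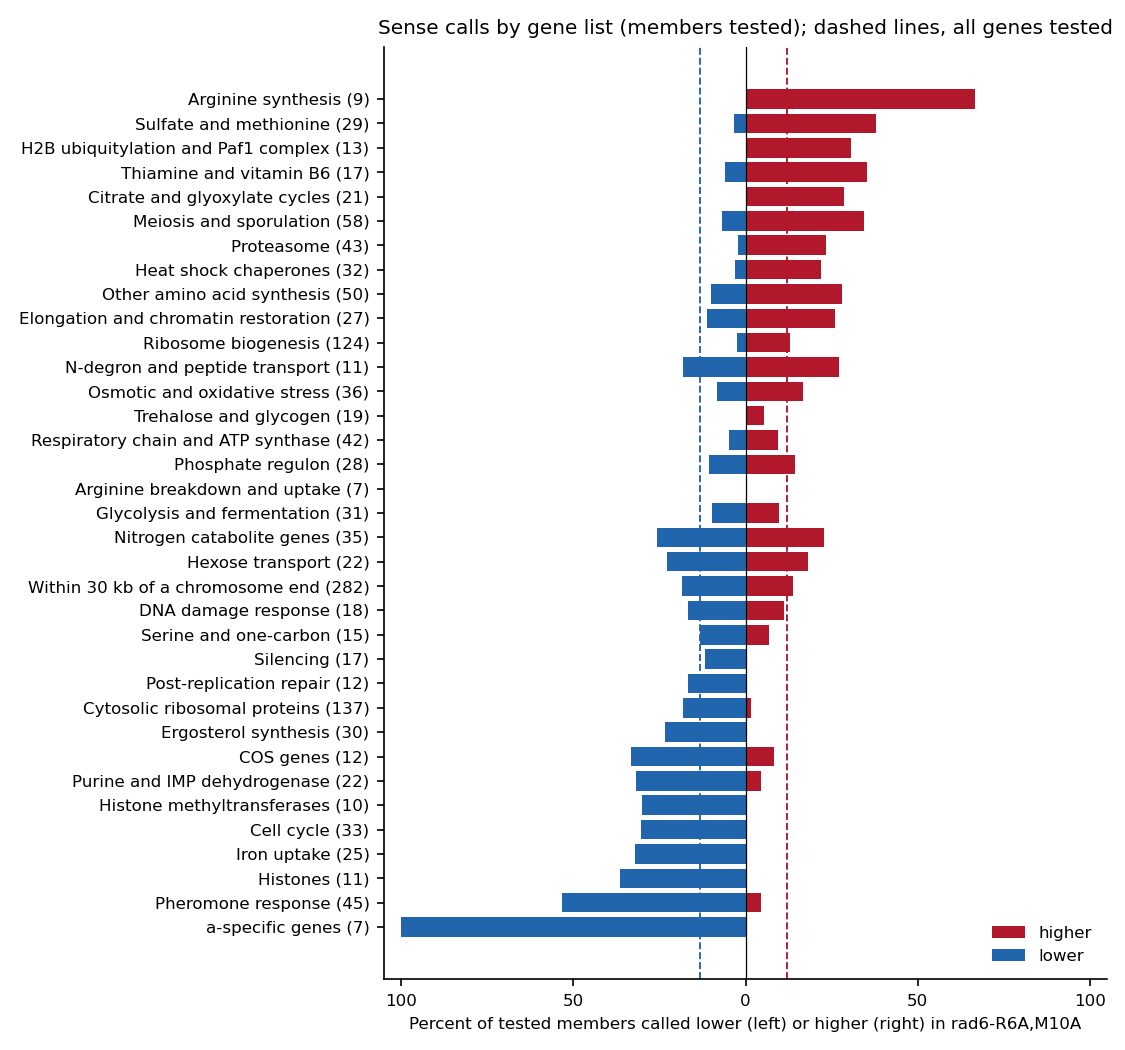
Percent of tested members of each gene list that were called higher (red, right) or lower (blue, left) in rad6-R6A,M10A, with the number tested in parentheses and dashed lines at the shares over all genes (12% and 13.2%). Arginine synthesis extends furthest to the right, with 6 of 9 genes, and the genes specific to MATa cells furthest to the left, with 7 of 7.

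On the antisense strand, 701 of 3741 genes tested (18.7%) differed, with 392 higher (10.5%) and 309 lower (8.26%). Of the antisense changes called, 300 of the rises were at least 2-fold, with a median of 1.58, and 111 of the falls, with a median of -0.85. In all, 11% of genes tested were called at 2-fold or more. With K. lactis scaling the split was 628 higher and 132 lower. In a fit of the compared groups alone, with 2664 genes tested, it was 319 higher and 368 lower, so the larger side depended on the processing. Since antisense counts are low, small antisense changes pass the test less readily than sense changes of the same size, and these medians are over called genes alone. The rises began from a low level, with a median of 0.807 CPM in the wild type and 2.62 in the mutant, and the falls from 9.75 CPM to 5.16. Over all genes, antisense counts were 5.20, 5.50 and 5.71% of sense and antisense counts in the mutant and 5.74, 5.60 and 5.60% in the wild type, with overlapping libraries (exact two-sided permutation p = 0.4). Of antisense counts, 83.9% lay in the 2569 genes whose antisense counts may come partly from a gene on the other strand. Over genes with no gene on the other strand the share was 1.39 ± 0.0771% in the mutant and 1.44 ± 0.022% in the wild type (exact two-sided permutation p = 0.5). Of the 701 genes, 359 were called in every fit that left out 1 of the 6 libraries.

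The largest antisense rises among genes with no gene on the other strand were in ESL2 and CTF13. ESL2 (YKR096W, chromosome XI 626793 to 630380) had 18, 20 and 19 antisense counts in the mutant and 1, 0 and 1 in the wild type (log2 4.47 ± 0.57, edgeR adjusted p = 1.67e-06), and its sense level rose by log2 0.50, a call lost without any 1 of the libraries other than WT tagged replicate 1. CTF13, a kinetochore gene (YMR094W, chromosome XIII 455825 to 457261), had 91, 79 and 55 antisense counts against 7, 1 and 1 (log2 4.45 ± 0.58). It is among the genes whose antisense counts may come partly from a gene on the other strand. Its converging neighbour is SNO1, which ends 23 bases away and rose by log2 4.39 on its own sense strand.

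PUL4 (YNR063W, chromosome XIV 746943 to 748766) had 139, 89 and 78 antisense counts against 10, 5 and 4, and it converges with YNR064C, 369 bases away, which rose by log2 4.10. In both CTF13 and PUL4 the library with the most antisense counts was rad6-R6A,M10A replicate 1. CLN3, a cyclin gene of G1 phase (YAL040C, chromosome I 65778 to 67520), had 22, 16 and 20 antisense counts against 2, 0 and 2 (log2 3.60 ± 0.46, edgeR adjusted p = 1.45e-06), and its own sense level fell by 0.89 on the log2 scale, a call lost without rad6-R6A,M10A replicate 2 or 3 or WT tagged replicate 2. That sense call of CLN3 was also lost with DESeq2, K. lactis scaling, counts that ignore strand and the compared groups alone. Antisense counts also rose over ROG3 (3.22), the repressor gene RFX1 (3.22), the autophagy gene ATG2 (3.21) and SWI1, a subunit of the SWI/SNF remodeler (2.96). ESL2, CLN3 and RFX1 had at most 2 antisense counts in each wild-type library, so their fitted changes depend on how low counts are treated. RFX1 and CLN3 have few sense counts, with means of 1.67 and 1.48 CPM in the mutant.

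The largest antisense falls were smaller. The antisense counts of GIC1, which acts with Cdc42 in bud formation (YHR061C, chromosome VIII 221534 to 222478), were 34, 20 and 18 in the mutant and 95, 84 and 92 in the wild type (log2 -2.06 ± 0.22, edgeR adjusted p = 5.52e-08). PTC6, a mitochondrial protein phosphatase gene, had 6, 11 and 17 against 48, 48 and 47 (log2 -2.20 ± 0.30), and no library of one group reached the other. PPN2 (-2.41), ATP3 (-2.33) and MYG1 (-2.03) were the others.

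Some genes changed in opposite directions on their 2 strands. LOA1, a lysophosphatidic acid acyltransferase gene (YPR139C, chromosome XVI 813156 to 814058), had 255, 152 and 128 antisense counts in the mutant and 38, 26 and 28 in the wild type (log2 2.38 ± 0.21, edgeR adjusted p = 7.24e-09), while its sense level fell from 120 ± 13.2 to 72.0 ± 1.79 CPM (-0.73). NMD5, an importin gene, had 23, 26 and 52 antisense counts against 4, 4 and 8 and fell on the sense strand by 0.81. NPR2 and RAX2 had antisense rises of 2.37 and 2.18 with sense values of -0.40 and -0.39. The sense call of NPR2 was lost without 3 of the libraries (rad6-R6A,M10A replicates 2 and 3 and WT tagged replicate 2) and that of RAX2 without any 1 other than rad6-R6A,M10A replicate 1. Both calls were lost with K. lactis scaling and with counts that ignore strand. The RAX2 call was also lost with DESeq2, median-of-ratios factors and no filter on low counts. In the other direction, ATP3, a subunit of ATP synthase, had an antisense fall of 2.33 and a sense rise of 0.40.

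Over genes tested on both strands, with no gene on the other strand and no reads shared with one, 275 had higher and 184 lower antisense counts. Of the 275, 52 (18.9%) fell and 25 (9.09%) rose on the sense strand. Of the 184, 41 (22.3%) rose and 14 (7.61%) fell. Among the 1494 genes with no antisense call, 14.6% rose and 14% fell on the sense strand. The sense strand did not pass the test in 72% of the 275 and in 70.1% of the 184.

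The converging neighbour is the gene whose 3′ end faces that of the gene described, and its calls were counted beside the antisense calls. Of 82 genes with lower antisense counts that had such a neighbour within 500 bases, 37 (45.1%) had a neighbour that fell on its own sense strand and 2 a neighbour that rose. Of 136 genes with higher antisense counts, 30 (22.1%) had a neighbour that rose and 10 (7.35%) one that fell. Among 1220 genes with no antisense call the neighbour rose in 9.02% and fell in 13.8%. These counts include genes that share reads with a gene on the other strand, 111 of all 392 genes with higher and 118 of all 309 with lower antisense counts. Without such genes, a choice made after seeing the data, the neighbour fell for 11 of 31 genes with lower antisense counts (35.5%) and rose for 2. It then rose for 13 of 89 with higher antisense counts (14.6%) and fell for 8, against 9.93% and 14.5% of 413 genes with no antisense call. Whether the antisense reads are continued transcripts of the neighbour was not tested.

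**Figure D4:**
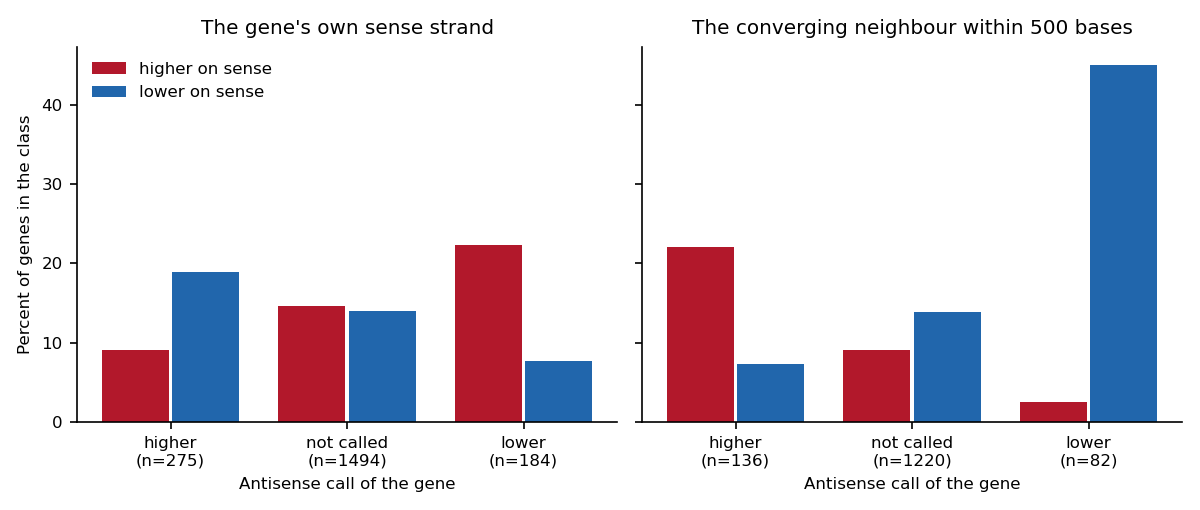
Percent of genes with higher, uncalled or lower antisense counts in rad6-R6A,M10A whose own sense strand (left, genes that share no reads with a gene on the other strand) or whose converging neighbour within 500 bases (right, genes that share such reads included) was called higher (red) or lower (blue). The own sense strand fell in 18.9% of genes with higher antisense counts, and the neighbour fell in 45.1% of genes with lower antisense counts.

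Long genes rose more often on both strands. Antisense counts rose in 24.8% of 335 genes over 3000 bases of coding length, in 19.8% of genes of 2000 to 3000, in 10.2% of genes of 1000 to 2000, in 4.01% of genes of 500 to 1000 and in 5.04% of 456 genes under 500. The median antisense log2 change was 0.46 in the longest class, -0.19 at 500 to 1000 bases and -0.08 in the shortest class. On the sense strand, 22% of 464 genes over 3000 bases rose and 8.41% fell, while 5.92% of 743 genes under 500 bases rose and 14.9% fell. The median sense change ran from -0.14 in the shortest to 0.13 in the longest class.

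Library by library, the median sense level of genes over 3000 bases stood 0.114, 0.014 and 0.043 above the genes' own means over the 6 libraries in the mutant and -0.065, -0.018 and -0.081 in the wild type, on the log2(CPM + 1) scale. The groups did not overlap, with rad6-R6A,M10A replicate 1 highest and WT tagged replicate 2 nearest to the mutant. The summed antisense share of genes over 3000 bases with no gene opposite and no shared reads was 0.573, 0.657 and 0.738% in the mutant and 0.603, 0.551 and 0.542% in the wild type, so it overlapped between groups. A part of RNA quality or fragment length in these trends was not tested.

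**Figure D5:**
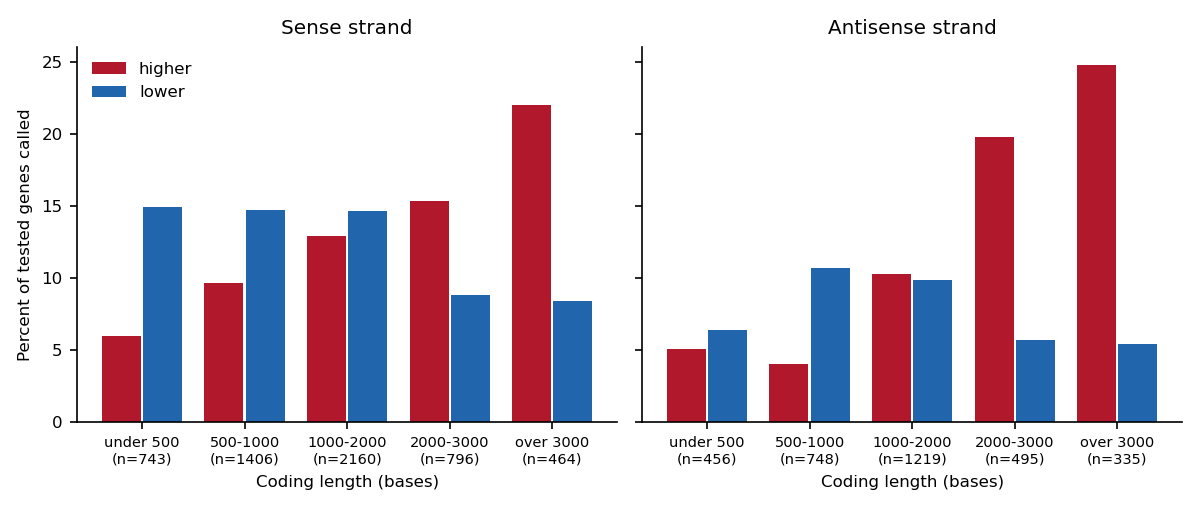
Percent of tested genes called higher (red) or lower (blue) in rad6-R6A,M10A by coding length, on the sense strand (left) and the antisense strand (right), with the number of genes in each class. On the sense strand rises grow with length from 5.92 to 22%. On the antisense strand they are 5.04% in the shortest class, 4.01% at 500 to 1000 bases and 24.8% in the longest.

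The mutant was compared directly with 3 other mutants. Against the deletion strain rad6Δ with the same HA tag on Rtf1 and no Rad6, 495 of 5790 genes differed (8.55%), 215 higher (3.71%) and 280 lower (4.84%) in rad6-R6A,M10A. Calls of at least 2-fold were 1.54% of genes. Leaving out replicates 2 or 3 of rad6-R6A,M10A gave 233 and 300 calls, and leaving out replicates 1 or 3 of the deletion gave 264 and 294. PTR2 was at 130, 101 and 108 CPM in rad6-R6A,M10A and 5.61, 5.43 and 7.31 in the deletion (log2 4.21 ± 0.17, edgeR adjusted p = 3.24e-14). PHO84 was at 85.7, 32.7 and 39.2 against 4.76, 3.58 and 3.404 (log2 3.74 ± 0.63). RIM4, an early meiotic RNA-binding protein gene, was lower by 2.44 on the log2 scale, PUT4, the proline permease gene, by 2.04 and CSS1 by 1.95.

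Pheromone genes were higher than in the deletion. Of 45 genes 22 were higher in rad6-R6A,M10A than in the deletion and 2 lower. When each library was left out, 18 to 21 were higher and 0 or 1 lower. FUS1 was at 24.8 ± 4.31 CPM in rad6-R6A,M10A, 58.0 ± 6.35 in WT tagged and 3.64 ± 0.562 in the deletion, and it was higher than in the deletion by log2 2.77 ± 0.17 (edgeR adjusted p = 1.06e-10). SST2 was at 238 ± 21.6 CPM against 81.7 ± 4.46 in the deletion and STE2 at 647 ± 32.9 against 214 ± 22.1, with no overlap in either. All 7 genes specific to MATa cells were higher than in the deletion, with a median of log2 1.60, and 6 were when each library was left out.

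Sulfur genes were higher than in the deletion too, 12 of 29 with 1 lower, among them the methionine synthase gene MET6 and the sulfhydrylase gene MET17 (log2 1.44 each). DNA damage genes were lower than in the deletion, 7 of 18 and none higher, with 5 to 7 when each library was left out. Over all genes 3.71% were higher and 4.84% lower. The glycosylase gene MAG1 was at 22.9, 26.9 and 22.0 CPM against 65.2, 55.5 and 69.0 in the deletion (log2 -1.40 ± 0.13, edgeR adjusted p = 1.09e-07). ARG1 was lower than in the deletion by 0.70 on the log2 scale, at 766, 731 and 876 against 1285, 1155 and 1423 CPM. SNO1 did not differ past the threshold (0.32 ± 0.29). Proteasome genes were lower than in the deletion, 23 of 43 and none higher, with a median of -0.40. When each library was left out, 7 to 19 of them were lower. Of 137 genes of cytosolic ribosomal proteins, 35 were higher than in the deletion and none lower, with 7 to 44 higher when each library was left out.

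Against rad6-R6Q, a single substitution of the same arginine in a strain with both tags, 2 of 5790 genes differed (0.0345%), both higher in rad6-R6A,M10A, with 627 at an unadjusted p under 0.05. Calls of at least 2-fold were 0.0173% of genes. COS8 was at 87.2, 81.2 and 84.0 CPM against 23.3, 35.3 and 24.7 (log2 1.60 ± 0.22, edgeR adjusted p = 0.00219). IMD2, an IMP dehydrogenase gene, was at 99.6, 112 and 109 CPM against 43.1, 68.9 and 59.6 (log2 0.90 ± 0.15, edgeR adjusted p = 0.0211). Without rad6-R6Q replicate 2 the count was 223, and without rad6-R6Q replicate 1 or 3 it was 0, so the COS8 and IMD2 calls rest on those libraries. IMD2 was also lost without any 1 of the rad6-R6A,M10A libraries, and the largest adjusted p was 0.0526 for COS8 and 0.800 for IMD2.

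Against rtf1-108-110AAA, a substitution in Rtf1 in a strain with both tags, 4 of 5790 genes differed (0.0691%), 3 higher (0.0518%, the same as the share called at 2-fold or more) and 1 lower (0.0173%), with 285 at an unadjusted p under 0.05. NQM1, a transaldolase gene, was at 21.3, 24.1 and 23.2 CPM in rad6-R6A,M10A and 9.25, 8.52 and 9.43 in rtf1-108-110AAA (log2 1.33 ± 0.19, edgeR adjusted p = 0.00267), and it kept its call without any 1 library. STL1, a glycerol transporter gene (2.67), and RTA1 (1.39) were higher, and DPC13 was lower by 0.63. These 3 calls were lost without some libraries, rad6-R6A,M10A replicate 3 and rtf1-108-110AAA replicates 1 and 3 in each case. Without 1 of the libraries the count was 1 to 3, with 1 without rad6-R6A,M10A replicate 3 or rtf1-108-110AAA replicate 1 and 2 without rad6-R6A,M10A replicate 1 or 2. A gene that misses the threshold is not shown to be equal. For SST2 the difference from rtf1-108-110AAA was -0.16 ± 0.10 and from rad6-R6Q 0.07 ± 0.10 on the log2 scale, and for ARG1 -0.13 ± 0.11 and -0.22 ± 0.11.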

How the data were processed

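RNA from 6 libraries was sequenced after depletion of ribosomal RNA with a kit that keeps strand, per the labels' protocols. The authors deposited raw counts per gene on the sense and antisense strands of S. cerevisiae and for K. lactis; STAR 2.7.5a, featureCounts, DESeq2 and the R64 build are named in the submitters' processing notes. The counts were tested with edgeR 4.0.16 in R 4.3.3 (quasi-likelihood, TMM scaling, Benjamini-Hochberg adjustment, threshold 0.05) in 1 fit over all 24 libraries. Antisense counts were scaled by the sense factors. Alternatives were other scalings, no filter on low counts, DESeq2 1.42.0, the compared groups alone, counts that ignore strand, a replicate block and each library left out.

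Of 6571 gene IDs, 5897 matched R64 and 674 did not; the latter held 0.133% of sense counts. Antisense counts of 2569 genes may come partly from a gene on the other strand, since those genes lost over 10% of antisense counts in the table that ignores strand. Sequences were read from the R64 reference. Motif matches describe letters in a window and not bound sites.

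Named genes were RAD6, RTF1 and their neighbours, the 10 largest rises and falls (mean of at least 10 CPM, no overlap), up to 3 calls in each direction per list, and, on the antisense strand, the 8 largest rises, 5 largest falls and 6 opposite changes (at least 2 CPM). Further genes, among them FUS1, FAR1, STE3, STE4, STE6, BAR1, KAR4, GPA1, AGA2, ASG7, DIG2, STE12, SAG1, ARG4, ARG56, ORT1, GCN4, SUL1, SPR28, NDT80, HTB1, BRE1, PAF1, CDC73, SET1, PHO84, COS4, MET6 and MET17, were chosen after their values were seen. A gene of arginine synthesis is not reported here and was left out of its list. The members and lists were chosen with earlier results of these data known. Each p rests on 3 biological replicates of 1 strain per genotype. For the main edgeR tests the spread among replicates was fitted over all 24 libraries and not over the compared groups alone.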

Additional observations from a re-analysis of the deposited data

How the results depend on the processing

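The replicate numbers did not pair the samples: the correlations of deviations between same-numbered libraries were -0.0006, -0.384 and -0.348. Differently numbered libraries gave -0.115 to 0.470. The highest were rad6-R6A,M10A replicate 2 with WT tagged replicate 3 (0.470) and rad6-R6A,M10A replicate 3 with WT tagged replicate 2 (0.279). What these pairs share was not tested. With the replicate block the sense calls numbered 1534, the antisense calls 780 and the calls against the deletion 560. Sense calls numbered 1450 with median-of-ratios factors (732 higher, 718 lower), 1696 with K. lactis scaling (1413 higher, 283 lower), 1510 with DESeq2, 1422 without a filter, 1375 in the compared groups alone and 1504 with counts that ignore strand, and 1014 to 1186 with 1 library left out. Antisense calls numbered 760 with K. lactis scaling (628 higher, 132 lower), 557 with DESeq2, 647 without a filter and 539 to 581 with 1 library left out. In the compared groups alone they numbered 687 of 2664 genes tested (319 higher, 368 lower). Against the deletion, K. lactis scaling gave 363 calls and leaving out 1 library gave 233 to 441. Against rad6-R6Q there was 1 call in the compared groups alone and 0 to 223 with 1 library left out. Against rtf1-108-110AAA there were 7 calls with DESeq2 and 1 to 3 with 1 library left out. The cause of these shifts was not tested. Of 142 called sense genes named by the rule, 85 kept their call in every alternative run and none reversed. The 17 antisense genes kept theirs in each alternative that gave a value, which for RFX1 left out the compared groups alone. Antisense totals of 489792 to 535791 counts limit what can be detected on that strand.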
